A study of Rattus norvegicus with 60 samples.

Results

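The miR-379 to miR-410 cluster is the long run of miRNA hairpins in the imprinted Dlk1-Dio3 locus, lying within the noncoding host gene Mirg. Its members were taken by name, as the mature arms (the 5p and 3p strands cut from each hairpin) whose names carry 1 of the cluster's hairpin numbers, in the small RNA counts of rat dorsal root ganglia. This gave 64 arms of 32 hairpins, among 879 arms and 1318 features listed in all. Ganglia came from rats of the strain labelled SD, either untreated (control) or given complete Freund's adjuvant (CFA), killed mycobacteria in oil that cause a lasting local inflammation. CFA was injected as 0.1 mL under the foot skin on one side, and the labels give neither sex, age nor the time to dissection. Each group had 10 small RNA libraries. The ganglion holds the cell bodies of sensory neurons together with glia, vessels and blood, and the libraries are from whole tissue.

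The Dlk1-Dio3 locus is imprinted: its noncoding RNAs and miRNAs are made from the maternally inherited chromosome. In brain the cluster is known for its high level in neurons, and in rat hippocampal neurons its transcription responds to activity through the factor Mef2. A miRNA acts mainly through its seed, bases 2 to 8 from its 5′ end, which pairs with target mRNAs. The best known member, miR-134, limits the size of dendritic spines in rat hippocampal neurons by holding back the mRNA of the kinase Limk1.

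In the RefSeq annotation of GRCr8 the hairpins from miR-379 to miR-410 span chr6:134543445-134579838, a distance of 36.4 kb. Of the 32 hairpins, 31 lie on the plus strand and 1, miR-299b, on the minus strand opposite miR-299a. RefSeq mature sequences were matched by name for 60 of the 64 arms, and the others were the arms of miR-495 and miR-668. The 5 arms with the highest levels are shown first, 5′ to 3′, with the seed in capitals, since together they held 45.7% of the cluster's counts.
miR-379-5p: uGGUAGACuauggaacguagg
miR-411-5p: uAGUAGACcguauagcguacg
miR-541-5p: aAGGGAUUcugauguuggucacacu
miR-300-3p: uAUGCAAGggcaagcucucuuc
miR-329-5p: aGAGGUUUucugggucucuguuuc
No other arm with a RefSeq sequence carries the seed of any of these. Sharing of seeds inside the cluster involved mainly arms of low level. The exceptions by level were miR-299a-3p, with the same seed as miR-299b-3p, and miR-376b-5p, with the same seed as miR-376c-5p. miR-410-5p, miR-494-5p and miR-496-5p shared GGUUGUC, and their levels summed to only 9.71 CPM, where CPM means counts per 1000000 scaled for library composition (TMM).

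Some members are near copies of each other, and their counts depend on how reads that match both were assigned, a rule the labels and file headers do not state. miR-300-3p and miR-381-3p differ by 1 base over the 18 bases of the shorter one (G4A, the base of miR-300-3p first, position counted from 1 at its 5′ end).
miR-381-3p: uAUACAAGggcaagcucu
Their levels were far apart, at 988 CPM for miR-300-3p and 4.62 CPM for miR-381-3p. The 17 bases listed for miR-299b-3p are identical to the start of miR-299a-3p. miR-376b-5p and miR-376c-5p differ by 1 base (G19U), at 123 and 1.10 CPM. The split of counts within each of these pairs is therefore uncertain.

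Members differed widely in level. miR-379-5p led with 2723 CPM averaged over the 20 libraries, the 54th of the 879 arms. miR-411-5p followed with 1713 CPM and miR-541-5p with 1357 CPM, and no other member reached 1000 CPM. A further 27 arms lay between 100 and 1000 CPM, 17 between 10 and 100 CPM, and 17 below 10 CPM. The 4 leading arms held 40.8% of the cluster's counts and the 10 leading arms 66.0%. The other arms among these 10 were miR-300-3p (988 CPM), miR-329-5p (818 CPM), miR-409a-3p (783 CPM), miR-323-3p (727 CPM), miR-409a-5p (636 CPM), miR-134-5p (629.6 CPM) and miR-382-5p (590 CPM). Of the 64 members, 59 had a count in every library. The other 5, all 5p arms, were listed at 0 in between 1 and 8 libraries, where a count of 0 allows up to 3 counts, or between 0.229 and 0.901 per 1000000 arm counts depending on the library. These limits cover counting error only, since the reads carry no molecular identifiers named in the labels.

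Position along the cluster did not order the levels. The first hairpin, miR-379, and its neighbour miR-411 together held 17.5% and 12.1% of the cluster, whereas miR-299b and miR-299a, the next ones, held 0.0172% and 1.42%. Near the far end miR-541 and miR-409a held 8.14% and 8.55%. miR-412, 35.9 kb from the start of miR-379 and next to miR-409a, held 0.654%. Differences between members include the ease with which each small RNA enters a library, so they are differences of counts, which need not equal differences of molecules.

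**Figure D1:**
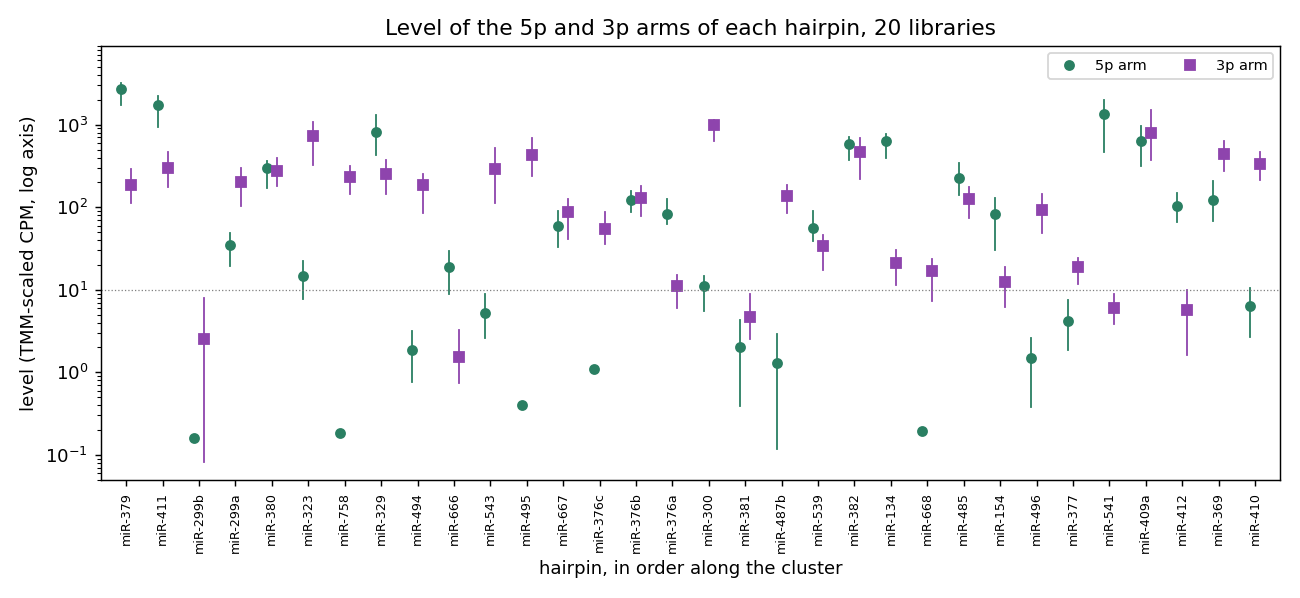
Level of the 5p arm (circles) and 3p arm (squares) of each of the 32 hairpins, in TMM-scaled CPM on a log axis, in order along the cluster. Symbols are means over 20 libraries and bars run from the lowest to the highest library for arms counted in every library. The levels run from 0.160 CPM (miR-299b-5p) to 2723 CPM (miR-379-5p), with high and low hairpins side by side.

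The arm that dominated differed from hairpin to hairpin. The 5p arm was the higher in every library for 11 hairpins and the 3p arm for 14, while the higher arm varied between libraries for 7. miR-541 was the most one-sided to 5p, at 99.6% ± 0.0998 5p in controls and 99.5% ± 0.153 in CFA (mean ± SD, n = 10 each). miR-134 gave 97.1% ± 0.420 and 96.4% ± 0.902. On the 3p side, miR-758 gave 0.114% ± 0.0769 5p in controls and miR-300 1.09% ± 0.285. Both arms of miR-409a were abundant, with a 5p share of 45.9% ± 4.27 in controls and 44.7% ± 8.71 in CFA, and miR-382 was likewise near balance at 55.5% ± 3.97 and 56.8% ± 7.08. In 10 hairpins the arms lay within 4-fold of each other on average.

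The first comparison asked whether the cluster as a whole had another level in the ganglia of CFA rats. Its counts made up 16889.9 ± 2780.1 per 1000000 arm counts in controls and 16563 ± 3603 in CFA (mean ± SD, n = 10 each), or 1.69% and 1.66% of all arm counts. Controls ran from 13493 through a median of 16319 to 22367. CFA libraries ran from 9083 through a median of 16975 to 20791. The groups overlapped over nearly their whole range, apart from CFA 3 and CFA 8, which lay below every control. The log2 ratio of the group means was -0.03, and it was 0.10 on the TMM scale, where the means were 16029 ± 1744 and 17150.5 ± 3219 CPM. Because the libraries are of whole ganglia, a lower share of counts from fewer neurons and one from less of these miRNAs per neuron cannot be told apart.

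The summed level followed the miRNAs that mark sensory neurons. These were 20 arms, led by miR-182-3p, miR-183-5p, miR-9a-1-5p and miR-7a-1-5p, of which the miR-183, miR-96 and miR-182 group is known for its high level in sensory organs and ganglia. Over the 20 libraries the cluster varied 2.46-fold and the summed sensory neuron arms 2.38-fold, yet their ratio stayed between 16.9 and 20.2 cluster counts per 100 sensory neuron counts, a 1.20-fold range. It averaged 18.8 ± 1.115 in controls and 18.8 ± 0.874 in CFA. As shares of all arm counts, the cluster and the sensory neuron arms were both lowest in CFA 3 and both highest in control 1. The cluster's extremes depended on the scaling. In TMM-scaled CPM it was lowest in CFA 8 (10170, against 12702 in CFA 3) and highest in CFA 1 (20738, against 16654 in control 1). For the shares of all arm counts, on a log2 scale, r was 0.967 and Spearman's rho 0.952 over the 20 libraries. It was 0.946 without control 1 and CFA 3, 0.939 within controls and 0.986 within CFA. These are descriptions over libraries in which both sums share the same total as denominator. With both sums divided by the counts of arms in neither list, r was 0.973, and on the TMM scale it was 0.950. The TMM-scaled r was 0.856 within controls, 0.978 within CFA and 0.894 without CFA 1 and CFA 8. Both versions still divide the 2 sums by the same number in each library, so they do not remove that limit.

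Other marker lists gave lower values or values of the opposite sign. Against the summed blood cell arms, r was -0.610, and -0.263 without CFA 3 and CFA 8. Blood cell arms stood at 3428 per 1000000 in CFA 3 and 4444 in CFA 8, above the control range of 1119 to 2649.8, and all 12 listed arms were counted in every library. CFA 8 also carried 839.5 per 1000000 of the liver miRNA miR-122, against at most 3.53 in controls. Far lower, but also above every control, were CFA 9 (16.8), CFA 10 (9.93), CFA 3 (7.67) and CFA 5 (3.89). The other CFA libraries did not exceed the control maximum. Against muscle arms r was -0.481 and against epithelial arms -0.0154. Against the myelinating glia arms r was -0.237, with opposite signs in controls (0.800) and CFA (-0.546), and it was 0.111 without CFA 3 and CFA 10. The glia arms averaged 3462 ± 343 per 1000000 in controls and 4276 ± 889 in CFA. The part of these other cell types in the cluster's level was not tested.

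**Figure D2:**
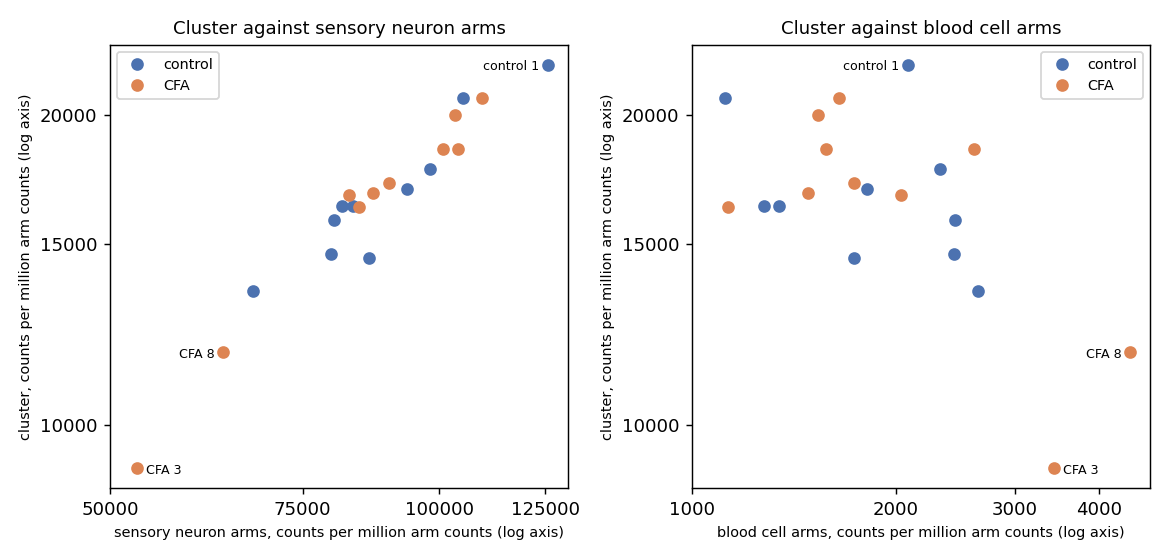
Summed cluster level of each library against its summed sensory neuron arms (left) and blood cell arms (right), all in counts per 1000000 arm counts on log axes, for 10 control and 10 CFA libraries. The points of the left panel lie along one line (r = 0.967) that both groups share. In the right panel CFA 3 and CFA 8 lie apart, at low cluster and high blood cell levels.

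Cluster arms also varied with the miRNAs encoded elsewhere in the Dlk1-Dio3 locus, 30 arms led by miR-127-3p, which faces the gene Rtl1. Per 100 counts of those arms the cluster had 48.7 ± 3.33 counts in controls and 47.6 ± 6.74 in CFA. CFA 3 was the highest at 63.3, above the control maximum of 53.9, and CFA 6 the lowest at 38.5. The log2 levels of the 2 sums had r = 0.972 over the 20 libraries. The part of blood cells, high in CFA 3, in that value was not tested. By the rule for likeness, the 5 arms outside the cluster that followed its summed level most closely were miR-183-5p (r = 0.962), miR-182-3p (0.937), miR-127-3p (0.909), miR-493-5p (0.904) and miR-92b-3p (0.879), on TMM-scaled log2 CPM over 20 libraries with group means taken out. The most negative values were those of miR-142-3p (-0.811), miR-144-3p (-0.790) and miR-142-5p (-0.774), which are blood cell arms.

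**Figure D3:**
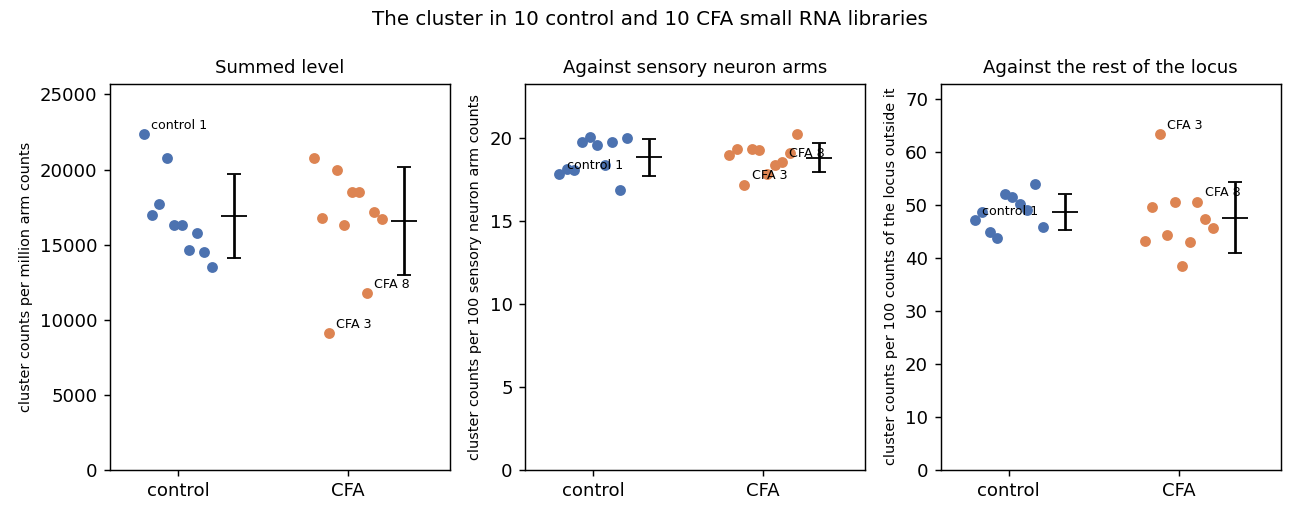
Summed cluster counts of each library per 1000000 arm counts (left), per 100 counts of the sensory neuron arms (middle) and per 100 counts of the other arms of the Dlk1-Dio3 locus (right). Points are libraries in order of their number, and bars are mean ± SD of 10. The left panel spreads from 9083 to 22367, the middle one only from 16.9 to 20.2, and in the right one CFA 3 stands alone at 63.3.

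Members varied together between libraries. Among the 47 arms of at least 10 CPM, with group means taken out, pairs from different hairpins had a median r of 0.437, and 91.4% of the 1064 pairs were above 0. The median was 0.434 between cluster arms and the rest of the locus and 0.361 between cluster arms and sensory neuron arms. Between cluster arms and the 285 arms of no list it was -0.0608, and among those 285 arms themselves 0.102. The 5p and 3p arms of one hairpin had a median r of 0.522 over 17 hairpins, all above 0. All these values share the same 20 libraries and their scaling.

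Single arms followed the rest of the cluster to very different degrees. miR-323-3p (r = 0.919 with the summed level of the other hairpins), miR-380-5p (0.910) and miR-382-3p (0.897) followed it most closely. miR-376a-3p (-0.0895), miR-300-5p (-0.0838) and miR-539-5p (0.0421) did not. For miR-300 the split ran within 1 hairpin, since its abundant 3p arm had r = 0.819. It ran within miR-380 too, where the 3p arm had r = 0.221 against the 0.910 of the 5p arm. miR-300-5p and miR-376a-3p averaged only 11.1 and 11.1 CPM, levels at which counting error weighs more, and miR-539-5p averaged 56.3 CPM. The part of counting error in these r values was not tested. miR-380-3p averaged 278 CPM, close to the 298 CPM of its 5p arm.

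The second comparison asked which single arms differed between CFA and control. Of the 64 members 57 passed the filter on low counts. The 7 that did not were all 5p arms with means between 0.160 and 1.47 CPM. With p-values adjusted by Benjamini-Hochberg over all 692 tested features, edgeR's quasi-likelihood test called 0 of the 57 arms, as it called 0% of all features, and the smallest adjusted p in the cluster was 0.166. DESeq2 also called 0 of the 57, against 1.48% of all tested arms and 4.62% of all features, with a smallest adjusted p of 0.119. Before adjustment, 7 cluster arms had a p under 0.05 and a higher level in CFA, or 12.3%, near the 12.8% of all tested arms. A lower level with such a p was found for 2 arms, or 3.51% against 3.53% of all arms. Fitted levels were higher in CFA for 40 of the 57 (70.2%, against 66.4% of all arms), and the median log2 fold change was 0.11, the same as the 0.11 of all arms. With upper-quartile factors both medians turned negative, at -0.04 for the cluster and -0.06 for all arms. The main fit also held 153 features named as hairpins, and 146 of them went down in CFA (median -0.92 on the log2 scale). Fitted without these, on arms only, the medians shrank to 0.03 for the cluster and 0.02 for all arms. The small positive medians therefore varied with the features and scaling factors used. The rest of the locus had a median of 0.14 over 26 tested arms, with 0 called by edgeR and 0 by DESeq2, and 2 arms higher with an unadjusted p under 0.05. With each library's sensory neuron level as a covariate, 0 of the 57 cluster arms were called, against 0% of all tested arms and 0.289% of all features.

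The 95% interval of the fold change stayed within 1.5-fold, up or down, for 38 of the 57 arms and within 2-fold for 54. A change of over 2-fold was therefore outside the interval for nearly all of them, and a change of over 1.5-fold for 38 of them. Intervals of the other arms reached past 1.5-fold at this number of libraries, and limits narrower than that were not examined. Among the 47 arms of at least 10 CPM, log2 fold changes lay between -0.20 and 0.51, with a median of 0.14 that equals the 0.14 of all arms of that level.

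**Figure D4:**
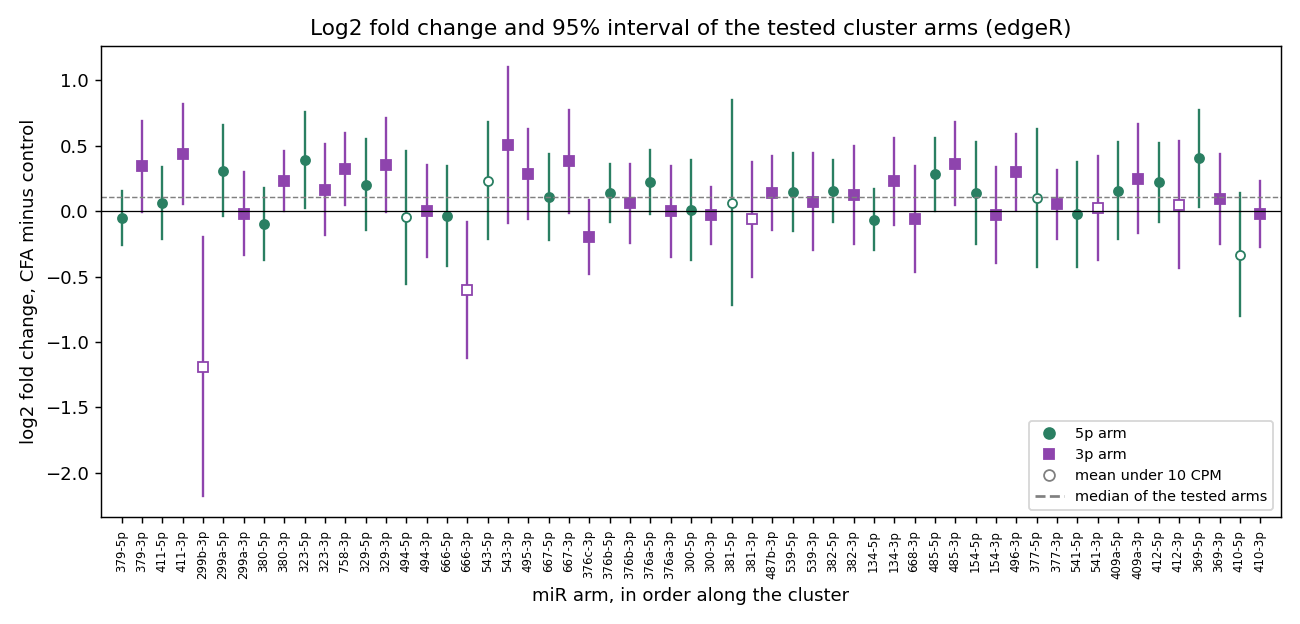
Log2 fold change (CFA minus control) of the 57 tested arms with its 95% interval from edgeR, in order along the cluster. Circles are 5p and squares 3p arms, open symbols have means under 10 CPM, and the dashed line is the median of 0.11. Most intervals cross 0, and the 2 lowest points, miR-299b-3p and miR-666-3p, are arms of low level.

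The most abundant arms were much alike in both groups. Levels of miR-379-5p were 2393, 2777 and 3213 CPM in control libraries (lowest, median and highest of 10 libraries) and 1725, 2761 and 3141 CPM in CFA ones. The CFA libraries spread wider than controls on the low side, with CFA 8 lowest, and the medians nearly coincided. Its log2 fold change was -0.05 (SE 0.10; adjusted p = 0.770 by edgeR). For miR-411-5p the levels were 1388, 1629.8 and 2136 CPM in control libraries and 926, 1939.7 and 2224 CPM in CFA ones, and 1 CFA library lay above and 2 below every control. The log2 fold change of this arm was 0.06 (SE 0.13; adjusted p = 0.775 by edgeR).

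miR-541-5p had the widest spread of the 3 leading arms, at 1079.8, 1329 and 1885 CPM in control libraries and 462, 1525 and 1982 CPM in CFA ones. CFA 8, CFA 9 and CFA 10 lay below every control, at 462, 828 and 807 CPM. The other 7 CFA libraries ran from 1446 to 1982 CPM. This arm had a log2 fold change of -0.03 (SE 0.19; adjusted p = 0.948 by edgeR) with all libraries and 0.24 without those 3. miR-300-3p had 757, 1015 and 1127 CPM in control libraries and 643, 1013 and 1151 CPM in CFA ones, a log2 fold change of -0.03 (SE 0.10; adjusted p = 0.858 by edgeR).

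The other abundant arms gave small differences with wide overlap. miR-329-5p averaged 760.1 ± 161 CPM in control against 875 ± 254 CPM in CFA libraries (SD, n = 10 each), with a log2 fold change of 0.20 (SE 0.17; adjusted p = 0.451 by edgeR). Both arms of miR-409a had positive values, 0.25 for 3p and 0.16 for 5p. miR-323-3p averaged 686 ± 169 CPM in control against 769 ± 192 CPM in CFA libraries, and miR-382-5p 558 ± 84.6 CPM in control against 622 ± 99.5 CPM in CFA libraries, with log2 fold changes of 0.16 and 0.16. None of these 5 arms had more than 2 CFA libraries above every control.

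miR-134-5p, the spine-limiting member, had 483, 651 and 752 CPM in control libraries and 393, 624.75 and 763 CPM in CFA ones. The groups covered nearly the same range, and only CFA 8 lay below every control. The log2 fold change was -0.07 (SE 0.11; adjusted p = 0.729 by edgeR), with a 95% interval from -0.30 to 0.17. miR-134-5p was 1 of 10 arms listed for a described role in neurons or a place near the ends of the cluster, of which 5 had positive and 5 negative log2 fold changes and 0 passed the test. miR-485-5p, which acts at presynaptic sites in rat hippocampal neurons, averaged 204 ± 29.9 CPM in control against 248 ± 58.1 CPM in CFA libraries, a log2 fold change of 0.28 (SE 0.13; adjusted p = 0.204 by edgeR). miR-329-3p, which takes part in the activity-dependent growth of dendrites in rat neurons, averaged 224 ± 49.95 CPM in control against 286 ± 84.6 CPM in CFA libraries, a log2 fold change of 0.35 (SE 0.17; adjusted p = 0.222 by edgeR). miR-495-3p averaged 392 ± 74.2 CPM in control against 478 ± 139 CPM in CFA libraries, a log2 fold change of 0.28 (SE 0.16; adjusted p = 0.272 by edgeR).

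miR-410-3p, from the last hairpin, averaged 336 ± 61.2 CPM in control against 330.1 ± 56.1 CPM in CFA libraries and had a log2 fold change of -0.02. miR-376a-3p, whose seed is known to be edited by adenosine deaminases in human and mouse tissue, averaged 11.1 ± 2.698 CPM in control against 11.04 ± 2.03 CPM in CFA libraries, a log2 fold change of -0.0026. Edited reads carry a changed base, and the labels and file headers do not state whether the counting kept them. miR-381-3p averaged 4.68 ± 0.957 CPM in control against 4.56 ± 1.80 CPM in CFA libraries, with a log2 fold change of -0.06. Its highest library, CFA 3, had 8.81 CPM, in the library where its near copy miR-300-3p had 773 CPM, against a control range of 757 to 1127 CPM.

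The smallest p among arms with higher levels belonged to miR-758-3p. Its levels were 144.40, 219.5 and 253 CPM in control libraries (lowest, median and highest of 10 libraries) and 176, 275 and 320.3 CPM in CFA ones. In 6 of 10 CFA libraries it lay above every control, and CFA 8 and CFA 3 were the lowest of the group. No member exceeded that count, and miR-496-3p, named here for it, equalled it. Outside the cluster, miR-384-3p lay above every control in 8 CFA libraries and miR-434-1-5p, of the same locus, in 7. The share of all arms with such counts is not given. The log2 fold change of miR-758-3p was 0.32 (SE 0.13; adjusted p = 0.166 by edgeR). miR-411-3p had 181.65, 224 and 410 CPM in control libraries and 177, 370.4 and 461 CPM in CFA ones, a log2 fold change of 0.44 (SE 0.18; adjusted p = 0.166 by edgeR). Here 3 CFA libraries lay above every control, among them CFA 10 and CFA 9, and 1, CFA 3, lay below them all.

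miR-485-3p had 88.6, 100.2 and 153 CPM in control libraries and 74.5, 151 and 174 CPM in CFA ones, with 4 CFA libraries above every control and 1, CFA 8, below. Its log2 fold change was 0.36 (SE 0.15; adjusted p = 0.166 by edgeR). miR-369-5p averaged 105 ± 23.8 CPM in control against 139 ± 45.0 CPM in CFA libraries, a log2 fold change of 0.40 (SE 0.18; adjusted p = 0.187 by edgeR). Its highest libraries were CFA 9 at 211 CPM and CFA 10 at 203.04 CPM, and CFA 3 was within the control range. miR-323-5p averaged 12.6 ± 2.99 CPM in control against 16.4 ± 4.29 CPM in CFA libraries, with 5 CFA libraries above every control and a log2 fold change of 0.39 (SE 0.18; adjusted p = 0.192 by edgeR).

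The largest positive value was that of miR-543-3p, named here after its values were seen, at 0.51. It also had the widest range over libraries of any cluster arm of at least 10 CPM, 4.74-fold. Controls lay between 111 and 496.21 CPM and CFA libraries between 114 and 528 CPM. The 95% interval of its log2 fold change ran from -0.09 to 1.10 and included 0.

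Among arms of at least 10 CPM with lower levels, the smallest p was that of miR-376c-3p. It averaged 58.4 ± 13.1 CPM in control against 50.9 ± 8.83 CPM in CFA libraries, a log2 fold change of -0.20 (SE 0.14; adjusted p = 0.364 by edgeR), and 2 CFA libraries lay below every control. miR-380-5p averaged 309 ± 32.6 CPM in control against 288 ± 68.4 CPM in CFA libraries, with 3 CFA libraries below every control and a log2 fold change of -0.10 (SE 0.13; adjusted p = 0.648 by edgeR). miR-668-3p averaged 17.3 ± 3.56 CPM in control against 16.5 ± 5.43 CPM in CFA libraries, a log2 fold change of -0.06 (SE 0.20; adjusted p = 0.857 by edgeR). The 2 arms with lower levels and an unadjusted p under 0.05 were of low abundance and were named after their values were seen. miR-299b-3p averaged 3.50 ± 2.29 CPM in control against 1.51 ± 1.07 CPM in CFA libraries, a log2 fold change of -1.19, and had between 1 and 45 counts per library. miR-666-3p averaged 1.83 ± 0.657 CPM in control against 1.196 ± 0.465 CPM in CFA libraries, a log2 fold change of -0.60, with 6 of 10 CFA libraries below every control.

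The third comparison set the arms of each hairpin against each other, since a ratio of arms from 1 library does not depend on how libraries are scaled. Of 213 hairpins in the whole table with enough counts on both arms, 26 were from the cluster. limma called 0 of the 26 hairpins after Benjamini-Hochberg adjustment, as it called 0% of all 213, and the smallest adjusted p in the cluster was 0.244. Before adjustment 3 cluster hairpins had a p under 0.05, or 11.5%, all with a lower share of 5p in CFA, against 8.92% of all 213 hairpins in that direction. A higher share of 5p with such a p was found for 0 cluster hairpins, against 5.16% of all. In all, 13 of the 26 had a lower share, against 112 of all 213 (52.6%).

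The 3 hairpins were miR-411, miR-379 and miR-380, which all lie within the first 3.5 kb of the cluster and have similar sequences. They are shown whole, with both mature arms in capitals.
miR-379: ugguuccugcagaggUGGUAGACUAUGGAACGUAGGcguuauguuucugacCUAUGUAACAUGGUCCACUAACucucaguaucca
miR-411: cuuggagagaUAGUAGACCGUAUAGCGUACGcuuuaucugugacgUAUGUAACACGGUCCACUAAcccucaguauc
miR-380: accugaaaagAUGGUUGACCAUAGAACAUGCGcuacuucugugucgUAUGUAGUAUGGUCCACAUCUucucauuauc
Their 3p arms share the 7 bases GGUCCAC near the 3′ end. This stretch, searched as letters in the mature strands, was found in 5 cluster arms and in no other of the 498 arms with a RefSeq sequence, which is 1.00% of them. It is marked in capitals in the next sequences.
miR-379-3p: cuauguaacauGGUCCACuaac
miR-411-3p: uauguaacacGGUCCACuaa
miR-380-3p: uauguaguauGGUCCACaucu
miR-758-3p: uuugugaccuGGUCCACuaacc
miR-412-3p: cuucaccuGGUCCACuagccgu
Shifted by 1 base, miR-411-3p and miR-379-3p differ at 1 of 20 positions (C10U, counted on miR-411-3p), so reads of one could be counted for the other. The log2 fold changes of these 5 arms were 0.34 for miR-379-3p, 0.44 for miR-411-3p, 0.23 for miR-380-3p, 0.32 for miR-758-3p and 0.05 for miR-412-3p, which averaged only 5.70 CPM. The likeness was noticed after the values were seen, and nothing was tested with it.

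In miR-411 the 5p arm made up 87.1% ± 2.58 of the counts of both arms in controls and 83.8% ± 2.01 in CFA. The control libraries ran from 82.0% to 90.1% and the CFA libraries from 80.8% to 87.2%. CFA 9 and CFA 10 lay below every control, and the other 8 CFA libraries lay within the control range. The difference in the log2 ratio of 5p to 3p was -0.39 (SE 0.13, p = 0.00758 before and 0.244 after Benjamini-Hochberg adjustment, limma). The lowest shares were those of CFA 10 at 80.8% (80.4% to 81.3%) and CFA 9 at 81.2% (80.8% to 81.7%), with exact 95% binomial intervals in parentheses, here and in the next paragraph, that cover counting error only. Control 5, the lowest control, had 82.0% (81.4% to 82.7%), an interval that overlaps that of CFA 9.

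In miR-379 the 5p share was 94.4% ± 1.67 in controls and 92.7% ± 1.77 in CFA, and CFA 9 and CFA 10 lay below every control at 89.2% (88.8% to 89.5%) and 90.3% (90.01% to 90.6%). Control 5, the lowest control, had 90.6% (90.2% to 91.0%), an interval that overlaps that of CFA 10. The log2 ratio of miR-379 differed by -0.41 (SE 0.17, p = 0.0266 before and 0.276 after Benjamini-Hochberg adjustment, limma). In miR-380 the shares were 54.7% ± 3.62 and 48.5% ± 7.66. CFA 3, 10, 8 and 9 had 37.7% (34.9% to 40.5%), 39.0% (38.0% to 40.1%), 40.8% (39.2% to 42.4%) and 42.7% (41.7% to 43.8%), below every control, and the other 6 CFA libraries lay within the control range of 49.5% to 60.5%. Its log2 ratio differed by -0.36 (SE 0.16, p = 0.0337 before and 0.276 after Benjamini-Hochberg adjustment, limma). Without CFA 8, 9 and 10 the differences were -0.32 for miR-411, -0.25 for miR-379 and -0.17 for miR-380.

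The 2 hairpins next by p were miR-666 and miR-134. miR-666 had the opposite sign, with a log2 ratio difference of 0.50 (SE 0.25, p = 0.0601 before and 0.348 after Benjamini-Hochberg adjustment, limma), and rested on a 3p arm of 1.52 CPM. For miR-134 it was -0.28 (SE 0.15, p = 0.0690 before and 0.369 after Benjamini-Hochberg adjustment, limma), and -0.08 without CFA 8, 9 and 10.

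**Figure D5:**
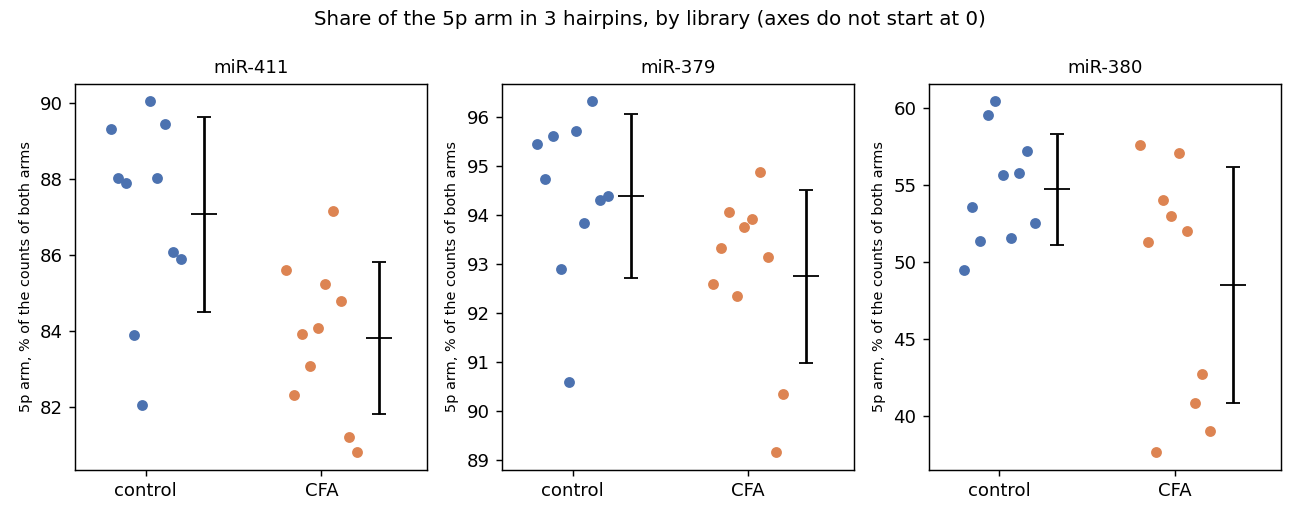
Share of the 5p arm among the counts of both arms of miR-411, miR-379 and miR-380, in percent, for each of 10 control and 10 CFA libraries in order of their number, with mean ± SD. The axes do not start at 0. In miR-411 and miR-379 the groups overlap with CFA 9 and CFA 10 lowest, and in miR-380 4 CFA libraries lie below every control.

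Over all small RNA libraries the counts ran from 3360055 to 13097872 per library, and the cluster held between 33148 (CFA 3) and 224645 (CFA 9) of them. Features named as hairpins took between 0.0833% and 0.938% of a library. The counts of CFA 9 and CFA 10 were closer than those of any other pair in a group but differed by far more than sampling noise (57.5 times the chi-square of equal libraries per degree of freedom), and were counted as separate samples. CFA 3 had the lowest cluster level as a share of all arm counts. CFA 8 had the lowest on the TMM scale and the highest level of miR-122. Without CFA 8, 9 and 10 the cluster had 0 arms called, and the share of all features called there is not given. The cluster's median log2 fold change was then 0.13, against 0.09 for all arms.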

How the data were processed

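Small RNA libraries of dorsal root ganglia (10 control, 10 CFA) were made with a NEBNext multiplex kit, per the labels' protocols. The deposited files hold a raw count per miRNA feature (879 arms, 439 hairpins), per the file headers. Of the tools in the submitters' processing notes, cutadapt 2.1.0, Trim Galore 0.6.4 and FastQC 0.11.8 deal with raw reads, STAR 2.7.0 and Bismark 0.22.0 with alignment and DESeq2 1.29.0 with counts, and the only build they name is rn4. Which of them were used for the small RNA libraries, the counting rule, the use of strand and the treatment of reads that match several arms are not given there. Arm names are those of the files, in which the abundant miR-182 strand is named 3p (22710 CPM, against 0.176 CPM for 5p).

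The test for single arms was the robust quasi-likelihood F test of edgeR 4.0.16 in R 4.3.3, fitted on all features with TMM factors, filterByExpr and treatment as the one term. P-values were adjusted by Benjamini-Hochberg over 692 tested features, with a threshold of 0.05. A positive log2 fold change means a higher value in CFA. Arm ratios, log2((5p + 0.5)/(3p + 0.5)), were tested with limma 3.58.1 (trend, robust) over 213 hairpins with at least 10 counts for each arm in at least 10 libraries. Summed levels are counts divided by all arm counts of the library and were described without a test. Correlations used log2 levels, with a pseudocount of 1 on TMM-scaled CPM. Both fits were tested on simulated data. Libraries held 3360055 to 13097872 counts. The labels speak of randomly chosen pairs of rats but do not say that each library is 1 rat, so p-values measure the spread between these libraries, which may in part be technical.

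Named arms were the 10 most abundant, the 5 of at least 10 CPM with the smallest p in each direction, and 10 arms chosen for a role in neurons or a place at the ends of the cluster. Named hairpins were the 5 with the smallest p in the ratio test. The 5 outside arms most like the cluster were also named. Members and lists were chosen with earlier results of these data known. Alternatives were RLE and upper-quartile factors, other filters and pseudocounts, DESeq2 1.42.0, a replicate block, arms only, other denominators, leaving out libraries 8, 9 and 10 of CFA or 1, 2 and 3 of control, and leaving out each library in turn. A sensory neuron covariate and denominator were added after seeing the data. The mRNA (20) and bisulfite (20) libraries were not analysed here, since 0 Ensembl identifiers could be paired with a symbol and no annotation of the bisulfite build was used. Sequences are from RefSeq (GRCr8).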

Additional observations from a re-analysis of the deposited data

Results flagged for a closer look

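Of 64 sets of 10 values checked for a library far from the rest of its group, 4 stood out, where chance flags about 1 in 20. miR-409a-5p was highest in control 4, at 897.3 CPM against 650.7 CPM in the next control. miR-382-5p was lowest in CFA 8, at 371.5 CPM against 553.6 CPM in the next CFA library. miR-381-3p was highest in CFA 3, at 8.813 CPM against 5.767 CPM in the next. The cluster's counts per 100 counts of the rest of the Dlk1-Dio3 locus were highest in CFA 3, at 63.34 against 50.56 in the next CFA library.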

How the results depend on the processing

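Cluster arms called stayed at 0 and cluster hairpins with a changed arm ratio at 0 under every alternative run, left-out libraries included. Apart from DESeq2 and the covariate fit, the share of all features called in these runs is not given here. The 0 of the cluster therefore cannot be set against it. The smallest adjusted p of the arms was 0.0780 with single libraries left out, and 0.0823, with no filter, among the other settings. Arms with an unadjusted p under 0.05 numbered between 1 (at least 10 CPM in 10 libraries) and 22 (no filter). The median log2 fold change of cluster arms was -0.0361 with upper-quartile factors, where that of all arms was -0.058, and 0.2807 with no filter, where it was 0.1372. The cluster median was 0.0293 with arms only and 0.0132 with at least 10 CPM in 10 libraries, against 0.0233 and 0.0337 for all arms. With single libraries left out it ran from 0.0611 to 0.1698. Of 239 values of the 24 named arms under other settings 213 kept their sign, and 0 passed the threshold. With upper-quartile factors miR-411-5p was at -0.0919 and miR-382-5p at -0.0121. With no filter the values were 0.119 for miR-379-5p, 0.12 for miR-541-5p, 0.14 for miR-300-3p, 0.105 for miR-134-5p, 0.0719 for miR-380-5p, 0.126 for miR-668-3p, 0.102 for miR-381-3p, 0.183 for miR-376a-3p and 0.168 for miR-410-3p. At least 10 CPM gave -0.0502 and arms only -0.0164 for miR-411-5p. The sensory neuron covariate gave 0.00473 for miR-376a-3p and 0.004645 for miR-410-3p. Without CFA 8, 9 and 10, miR-379-5p was at 0.0624, miR-541-5p at 0.244, miR-300-3p at 0.0452, miR-134-5p at 0.0389, miR-380-5p at 0.00678, miR-668-3p at 0.0749 and miR-381-3p at 0.129. Without controls 1, 2 and 3, miR-668-3p was at 0.0601, miR-376a-3p at 0.0657 and miR-410-3p at 0.0406. With single libraries left out, the ranges that crossed 0 were -0.0647 to 0.0272 for miR-300-3p, -0.0644 to 0.0569 for miR-376a-3p, -0.0785 to 0.0118 for miR-379-5p, -0.196 to 0.0148 for miR-381-3p, -0.0712 to 0.0414 for miR-410-3p, -0.101 to 0.0772 for miR-541-5p and -0.127 to 0.0268 for miR-668-3p. These values lay between -0.196 (miR-381-3p) and 0.244 (miR-541-5p). With no filter the cluster median moved too, from 0.1083 in the main fit to 0.2807. The cause of the changes in sign was not tested.

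With the replicate number as a block, 0 cluster arms (smallest adjusted p 0.114) and 0 cluster hairpins (0.149) were called. The shares of all features and hairpins called with the block are not given. The cluster median was 0.0786 and miR-376a-3p was at 0.0123. Correlations of same-numbered libraries ran from -0.416 to 0.605. They were not set against those of libraries with different numbers, so they cannot decide whether equal numbers mark pairs. The planned comparison of mRNAs of the locus and the miRNA pathway was not run, since 0 identifiers could be paired with a symbol. No alternative settles how counts of near copies were split, and at 10 libraries a group the 95% interval reached past 1.5-fold for 19 of the 57 arms.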
